A study of Mus musculus with 384 samples.

Results

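The wells described here are those in which few transcripts were found: 62 of 383 measured wells of a plate-based single-cell RNA-seq study of mouse retina. They were chosen by 1 measured value, fewer than 3000 genes with an expected count of at least 1. That choice enters every gene, so the levels in these wells are set beside those of the other 321 wells as a description, with no test. The cells came from 2 mice at postnatal day 17 that carried both a Cre recombinase knocked into the Kcng4 locus and Thy1-stop-YFP (Line#1), a yellow fluorescent reporter switched on by Cre. Retinas were dissociated and single cells sorted by fluorescence into 96-well plates of lysis buffer, and libraries were made with Smart-seq2, a full-length cDNA method without molecular identifiers. Each mouse gave retinas labelled la and Ra (1la and 1Ra, 2la and 2Ra), and each retina filled 1 plate. No group lacked the Cre or the reporter, and retina and plate cannot be told apart. Wells of 1 plate are not independent replicates, so values are given by retina.

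Kcng4 encodes a potassium channel subunit that is expressed in a subset of retinal bipolar cells and in alpha ganglion cells. Bipolar cells carry the signal of rods and cones to ganglion cells, whose axons leave the eye and are rich in neurofilament proteins such as the one encoded by Nefl. Calb1 encodes calbindin, a calcium-binding protein of horizontal cells and some amacrine and ganglion cells. Transcripts of the mitochondrial genome lie inside the organelle, while long non-coding RNAs such as Malat1 and Xist are retained in the nucleus.

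The RNA-poor wells were 25 of 95 in retina 1la (26.3%, exact Clopper-Pearson 95% interval 17.8 to 36.4), 16 of 96 in 1Ra (16.7%, 9.84 to 25.7), 8 of 96 in 2la (8.33%, 3.67 to 15.8) and 13 of 96 in 2Ra (13.5%, 7.41 to 22). These intervals cover counting error only. Splitting them at a total of 50000 expected counts gave 39 shallow and 23 deeper wells. No RNA-poor well had a total between 49381 and 112146 counts. The deeper wells were 5 in 1la, 13 in 1Ra and 5 in 2la. Retina 2Ra had 0 of 96, with an exact interval of 0 to 3.77% (3 counts of 96 would be 3.13%), and all 13 of its RNA-poor wells were shallow. The other 321 wells held 203657 to 1945582 counts and a median of 6354 genes.

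**Figure D1:**
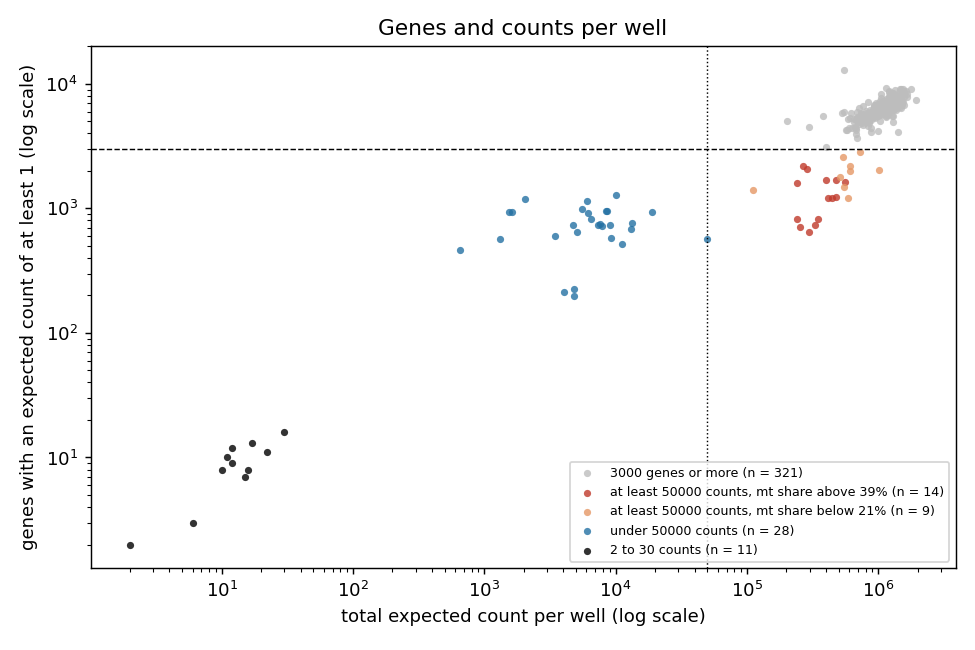
Genes with an expected count of at least 1 (vertical) against the total expected count (horizontal) of each of the 383 wells, both on log scales, with lines at 3000 genes and 50000 counts. The 11 wells of 2 to 30 counts, the 28 other shallow wells and the 23 deeper wells differ in total, and the gap to the 321 other wells on the vertical axis is set by the limit of 3000 genes.

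The 3 wells just inside the limit had 2834, 2610 and 2192 genes, and the 3 just outside had 3134, 3657 and 3929. All 6 were in retina 1Ra. Nefl was listed at 0 in all of them, and their Malat1 level ran from 5926 to 52016 TPM (a transcript level scaled by length that sums to 1000000 in each well). The Malat1 levels inside and outside the limit overlapped. In a check for repeated wells, the highest correlation across genes among 46 RNA-poor wells of at least 3000 counts was 0.373. This value does not mean that leading genes differed between wells. In B9 and B12 of 1la, Calb1 was at 333081 and 360649 TPM and Gm26924 at 138257 and 192948 TPM.

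Neither Nefl nor Calb1, the genes proposed as markers of these wells, was high in all of them. Nefl reached 100 TPM in 15 of the 23 deeper wells and in 0 of the 39 shallow ones, against 24 of the 321 other wells. Calb1 reached 100 TPM in 16 of 23 deeper and 23 of 39 shallow wells, against 79 of 321. In the 23 deeper wells, 9 of the 16 ganglion cell genes were under 1 TPM in all wells, Pou4f2, Rbpms, Slc17a6 and Spp1 among them. Pou4f1, another ganglion cell factor, reached 657 TPM in 1 well. Of the 8 horizontal cell genes 3 were under 1 TPM in all deeper wells, Lhx1, Onecut1 and Onecut2. In the shallow wells the same 7 genes did not reach 1 TPM either, but totals there are too small to show that they are absent. The wells are given no cell type name here, and are described in sets by their counts.

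The emptiest set lay on 1 line of 1 plate. All 11 measured wells of row D of retina 1la were RNA-poor, with totals of 2 to 30 counts. The remaining position of that row, D8, is the single well of the 384 without values in the files used here. Together the 11 wells held 153 counts over 81 genes. The mitochondrial transcript mt-Nd5, a subunit of respiratory complex I, took 57.4 of these counts (37.5%) and was found in 10 of the 11 wells. Gm26924, a transcript found in each of the 321 other wells, had 6 counts in 5 wells. These totals are too low to describe a cell.

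Some other RNA-poor wells lay in runs, picked from all rows and columns of the 4 plates and not tested. Column 1 of the 2la plate held 4 of that plate's 8 RNA-poor wells, of which A1, B1 and C1 were shallow and D1 was deeper. Column 9 of the 1la plate held 4 of 8 wells, A9, B9 and C9 beside D9 of the near-empty row. With the near-empty wells of row D of 1la not counted as RNA-poor, RNA-poor wells were 23 of 144 edge positions (16%, exact interval 10.4 to 23). At inner positions they were 28 of 239 (11.7%, 7.93 to 16.5). The wells of row D stay in both totals of positions. The intervals overlap, but they pool wells of 4 plates that are not independent, so they give no verdict on the edge. The edge and inner shares were 13.9% and 15.3% in 1la and 19.4% and 15% in 1Ra. In 2la they were 13.9% and 5%, and in 2Ra 16.7% and 11.7%. Row D of 1la filled a whole line of its map, while the columns named above did not.

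**Figure D2:**
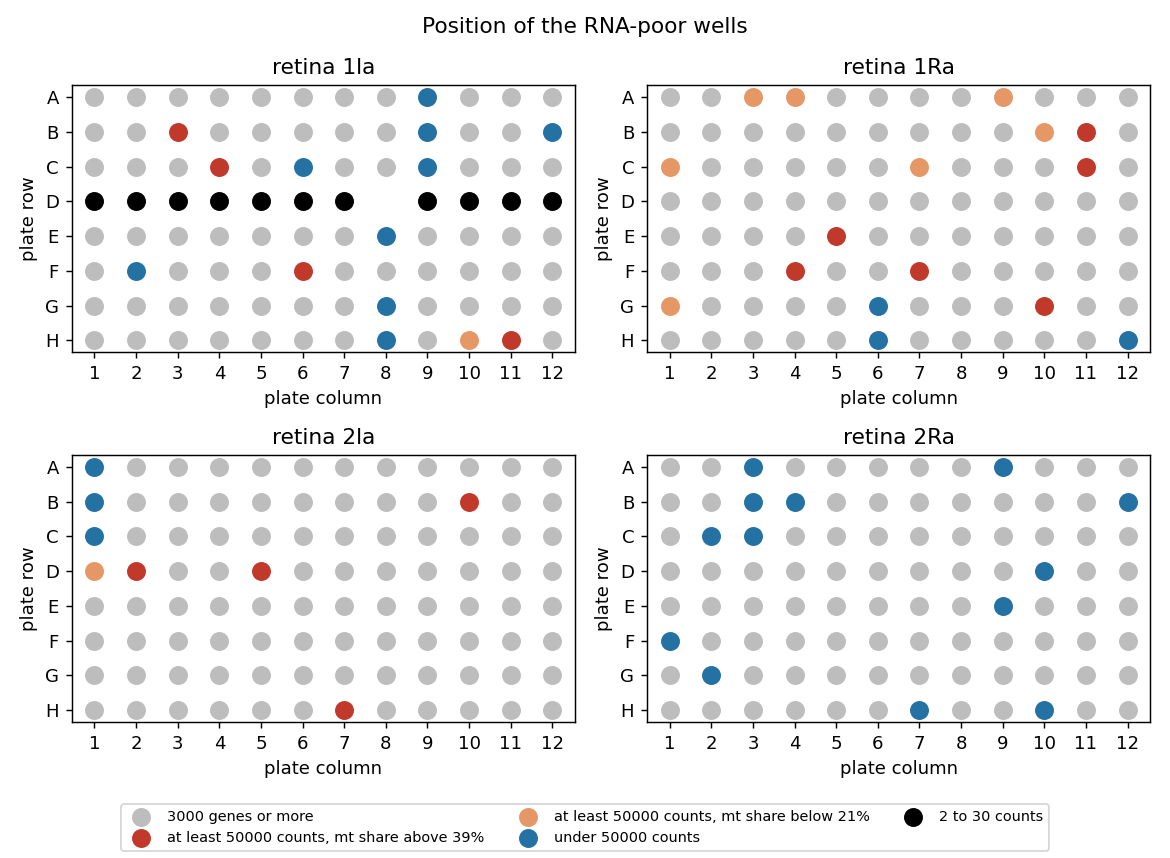
Plate position (rows A to H, columns 1 to 12) of every measured well in the 4 retinas, coloured by set. Row D of 1la is near empty in all 11 measured wells, column 1 of 2la holds 4 RNA-poor wells, and 2Ra has no deeper RNA-poor well.

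The other 28 shallow wells, with 657 to 49381 counts and 198 to 1282 genes, were of different kinds. In 5 of them, A1, B1 and C1 of 2la, E8 of 1la and A3 of 2Ra, Calb1 had no count, and the totals were 657 to 2059. Each well's number of genes was set beside the number expected in the other wells of its retina when drawn down to the same total. The 5 wells reached 77% to 115% of the median expected number, and 4 of them exceeded it. Their 10 leading genes took 20.6% to 44.2% of counts, against a median of 19.8% in the other 321 wells. Gm10800, which led the TPM of all 5, took 4.40% to 16.4% of counts, within the range of 0.000428% to 26.9% in the other wells.

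The remaining 23 shallow wells had a Calb1 count and far fewer genes than their totals allowed. Their totals were 3476 to 49381 counts, all above those of the 5 wells, so the split by Calb1 was also a split by total. The 23 wells held 13.3% to 60.5% of the expected number of genes, which did not overlap the 5 wells above. Their 10 leading genes took 57% to 93.3% of counts, with a median of 79.2%. Calb1 alone took a median of 6.06% of counts and at most 35%, against a median of 0.00312% and a maximum of 0.507% in the other 321 wells.

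Calb1 was high in most of these wells as a number of reads and not only as a share. The set was defined by having a Calb1 count, so its Calb1 level is a description. In the 8 such wells of 1la, Calb1 had 1327 to 2264 counts (median 1647) in totals of 5590 to 13160. The 70 other wells of 1la had 19.2 to 172 Calb1 counts (median 63) in totals of 203657 to 1576728. The groups did not overlap. In the 3 wells of 1Ra, Calb1 had 25.3, 71.4 and 88.9 counts, against 1.61 to 52.2 (median 16.3) in the other wells of that retina. In the 12 wells of 2Ra, Calb1 ranged from 3.01 to 1402 counts (median 338), against 0.89 to 262 (median 18.6). These last 2 pairs of groups overlapped. Wells C3 and B3 of 2Ra, with 3.01 and 6.17 Calb1 counts, lay below the median of the other wells of 2Ra. On the TPM scale the highest Calb1 level was 447924, in C9 of 1la, close to 45% of all transcripts in that well (44.8%).

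A few other genes were high together with Calb1. Cp encodes ceruloplasmin, a copper-carrying ferroxidase, and Pax6 a transcription factor of amacrine, horizontal and ganglion cells. Cp and Pax6 each had a count in 21 of the 23 wells, and so did Smco1. These genes had no count in the 5 wells without Calb1, whose totals of 657 to 2059 are too small to show absence. Cp had 649 to 1033 counts in the 8 wells of 1la, against 0 to 73 in the other wells of that retina. In the 12 wells of 2Ra, Cp had 0 to 536 counts (median 78.7), against 0 to 1802 (median 0) in the other wells. In 1Ra, Cp had 68.5, 133 and 135 counts against 0 to 203 in the other wells, 26 of 80 of which had a count. Pax6 had 186, 202 and 369 counts in the 3 wells of 1Ra, against a median of 3.87 in the other wells, although single other wells reached 457. Pax6 also overlapped in 1la, with 36.4 to 158 counts (median 100) against 0 to 288 (median 5.19). In 2Ra it had 0 to 1039 (median 90.3) against 0 to 1805 (median 6.19). Smco1, whose transcript encodes a small membrane protein, had 85.4 to 178 counts in the 3 wells of 1Ra and at most 7.83 in the other wells of 1Ra. In 2Ra, Smco1 had 0 to 1313 counts (median 106), against 0 to 11.8 (median 1.12). The highest Pax6 level was 228328 TPM, in H10 of 2Ra, where Smco1 stood at 104705 TPM. Calb1 and Pax6 are also members of cell type lists. The horizontal cell list of 8 genes summed to a median of 7.52% of TPM in the 28 shallow wells, against 0.0559% in the other 321, with 5 of the 8 genes found in at least 1 well and 2 in most. Its median was 32.9% in 1la. Without Calb1 the other 7 genes summed to a median of 0.00359% in the 23 wells, against 0.0493% in the other wells. The amacrine list of 10 genes summed to a median of 2.88% in the shallow wells, against 0.00137%, and without Pax6 to a median of 0% in the 23 wells, against 0.000288%. At these totals a gene listed at 0 cannot be said to be absent.

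**Figure D3:**
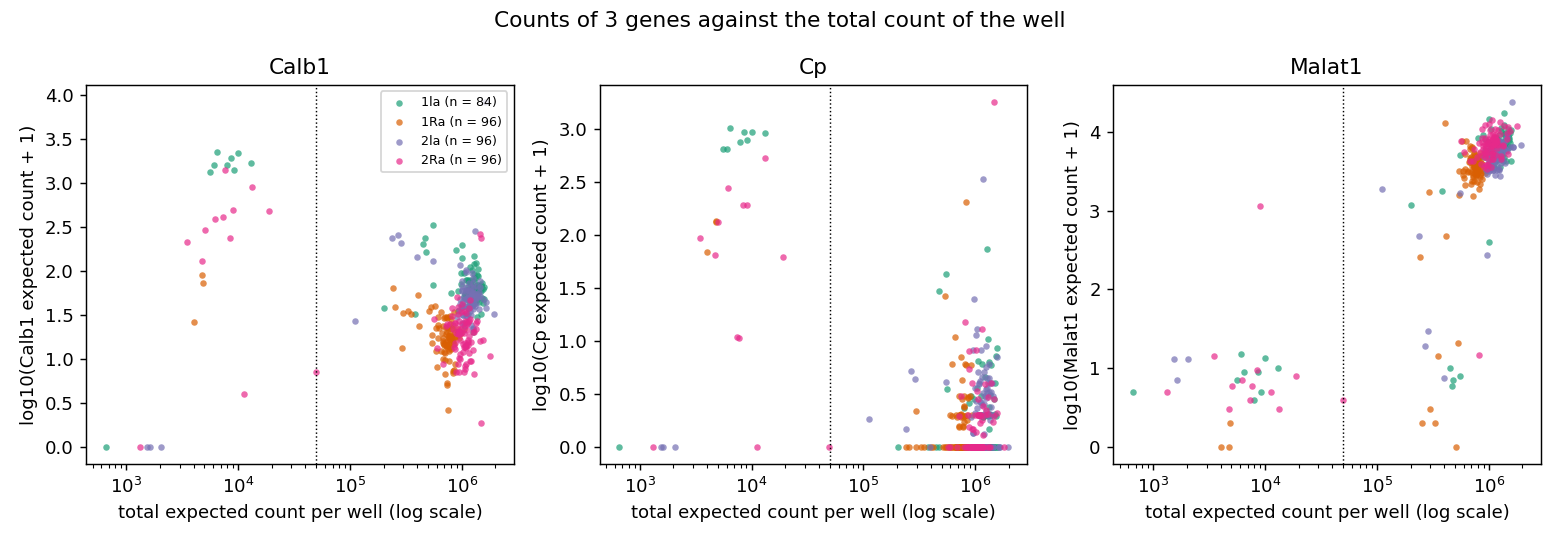
Expected counts of Calb1, Cp and Malat1, as log10(count + 1), against the total expected count on a log scale, for the 372 wells other than row D of 1la, coloured by retina, with a line at 50000 counts. Shallow wells of 1la hold more Calb1 and Cp counts than wells with far larger totals, while 27 of the 28 shallow wells hold at most 14 Malat1 counts.

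Malat1 had few counts in most of the same wells. In the 8 wells of 1la with Calb1, Malat1 had 3 to 14 counts, against 1166 to 17482 in the other wells of that retina. In 2Ra it had a median of 5 counts, against 6842. The exception was A9 of 2Ra, with 1130 Malat1 counts and 133186 TPM. As the totals of these wells are small, a low count there gives no lower share by itself. On the TPM scale the median Malat1 level was 1072 in the 23 wells, 12 of which reached 1000 TPM, against 9939 in the other 321 wells. In the 5 shallow wells without Calb1 it was 5982 to 15029 TPM.

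Single wells weighed on the summed shallow profile. Over all wells under 50000 counts, Gm26924 took 18.9% of counts and was found in 33 wells, and Calb1 took 8.19%, in 23 wells. Cp took 3.69%, in 21 wells. Lars2, the gene of mitochondrial leucyl-tRNA synthetase, took 2.25%, in 24 wells, and Smco1 2.03%, in 21. Wdr12, Gm10699, Haus8 and Cnot7 also ranked among the 10 leading genes with 2.08% to 3.78%, but 99.0% or more of each came from B3 of 2Ra. Well B3 held 49381 counts in 563 genes. The mitochondrial gene mt-Nd1 took 2.11%, of which 56.1% came from E9 of 2Ra.

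Mitochondrial transcripts were rare in most shallow wells. Their median share of TPM was 0.775%, with 0.159% as the lowest, against 5.67% in the other 321 wells. The exceptions were D10, C3 and E9 of 2Ra, with 36.2%, 38.8% and 68.6%. Rod genes summed to a median of 0.0603% and bipolar genes to 0.165%, against 0.0866% and 1.22% in the other wells. These medians pool the 2 kinds of shallow wells. In the 5 wells without Calb1, bipolar genes summed to 0.388% to 1.78% and mitochondrial transcripts to 1.76% to 6.23%. In the other 23, a few leading genes took most of the counts, which lowers all other shares. The top rod shares among shallow wells were 0.863% in E8 of 1la and 0.779% in H7 of 2Ra. Nefl had 2 counts in A9 of 1la and none in the other 27 shallow wells.

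The 23 deeper wells had few genes at totals that overlapped those of the other wells. They held 112146 to 1010658 counts and 650 to 2834 genes, with a median of 1606. When each well was thinned to 50000 counts, they kept a median of 797 genes (436 to 1901) and the other 321 wells 3642 (1932 to 6358). The groups did not overlap at that depth. By retina the thinned medians were 787 in 1la, 817 in 1Ra and 797 in 2la, against 3727, 3393 and 3784 in the other wells. The wells were chosen by their gene number, so this gap is a description.

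Mitochondrial transcripts divided the deeper wells. Their share of TPM ran from 6.09% to 20.5% in 9 wells and from 39.8% to 71.7% in 14, with no well between. The share in the other 321 wells had a median of 5.67% and a maximum of 16.9%. In retina 1la the 5 wells had 16.7%, 39.8%, 43.7%, 44.6% and 49.2%. In retina 2la they had 13.1%, 51.2%, 51.8%, 56.9% and 63.1%. In retina 1Ra, 6 wells had 55.9% to 71.7% and 7 wells 6.09% to 20.5%. The high-mitochondrial wells were thus 4 of 5, 4 of 5 and 6 of 13. Over the 3 retinas, the mean of the retina medians was 38.7% ± 16.2 (SD, n = 3) in deeper RNA-poor wells and 5.22% ± 2.49 in the other wells.

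All 3 kinds of mitochondrial RNA were high in the 14 wells. These wells were set apart by the sum of the 3 kinds, so higher levels there follow in part from the split. The 13 protein-coding genes, which encode subunits of the respiratory chain and of ATP synthase, summed to a median of 33.4% of TPM, against 3.69% in the other 321 wells. The 22 tRNA genes summed to 10.5% against 1.01%. The ribosomal RNAs mt-Rnr1 and mt-Rnr2 summed to 11.3% against 0.820%. In the 9 lower wells the protein-coding genes stood at 11.4% and the tRNAs at 2.40%, while the ribosomal RNAs stood at 0.116%, lower than in the other wells. The ribosomal RNAs and the mitochondrial mRNAs therefore did not keep 1 ratio in the 2 sets. By single genes, mt-Rnr2 had 30030 to 139359 TPM (median 91559) in the 14 wells, against 1.71 to 32831 (median 1157) in the 9 and a median of 6537 in the others.

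Among the 15 genes with the highest mean TPM over the deeper wells, 12 were mitochondrial. The mean of mt-Rnr2 was 65490 ± 20103 TPM (SD, n = 3 retinas) against 6821 ± 2004 in the other wells, and that of mt-Co1, a cytochrome c oxidase subunit, 43160 ± 7791 against 6777 ± 3301. Gm10222, a pseudogene on chromosome 1, had the same TPM as mt-Nd4l in all 383 wells, so that reads of the pair cannot be assigned to either. Gm26924 had 50434 ± 36871 against 57506 ± 6154 TPM, a difference within the spread between retinas. Metazoa_SRP, the cytoplasmic RNA of the signal recognition particle, had 15896 ± 8271 against 5947 ± 755. Metazoa_SRP was at 8126 to 36101 TPM in the 14 high-mitochondrial wells (median 17943) and at a median of 3679 in the 9.

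Nefl went with the mitochondrial share. It lay at 932 to 7942 TPM in all 14 high-mitochondrial wells, with a median of 3191. In the 9 lower wells it was 883 TPM in A9 of 1Ra and at most 4.01 elsewhere. Among the other 321 wells Nefl reached 1 TPM in 48, with a maximum of 555, so the 14 wells lay above every one of them. In retina 1la the 4 wells had Nefl levels of 3037, 3344, 4358 and 6815 TPM, and the fifth deeper well, H10, had 0.48. In retina 2la the 4 had 1586, 1809, 3908 and 7942 TPM, and D1 had 4.01. In retina 1Ra the 6 ranged from 932 to 5708 with a median of 2508. The mean over deeper wells was 2645 ± 1125 TPM (SD, n = 3 retinas), 152 times the 17.4 ± 5.42 of the other wells. The neurofilament list of 6 genes summed to 0.201% ± 0.124 of TPM (SD, n = 3 retinas), against 0.000198% in the other wells. In the 14 wells the list spanned 0.0955% to 0.794%, and 1 other well, H1 of 2la, lay within that range at 0.733%, of which Vim, an intermediate filament of glia, gave 7109 TPM and Nefl 94.8. Without Vim the list summed to at most 0.0729% in the other wells.

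**Figure D4:**
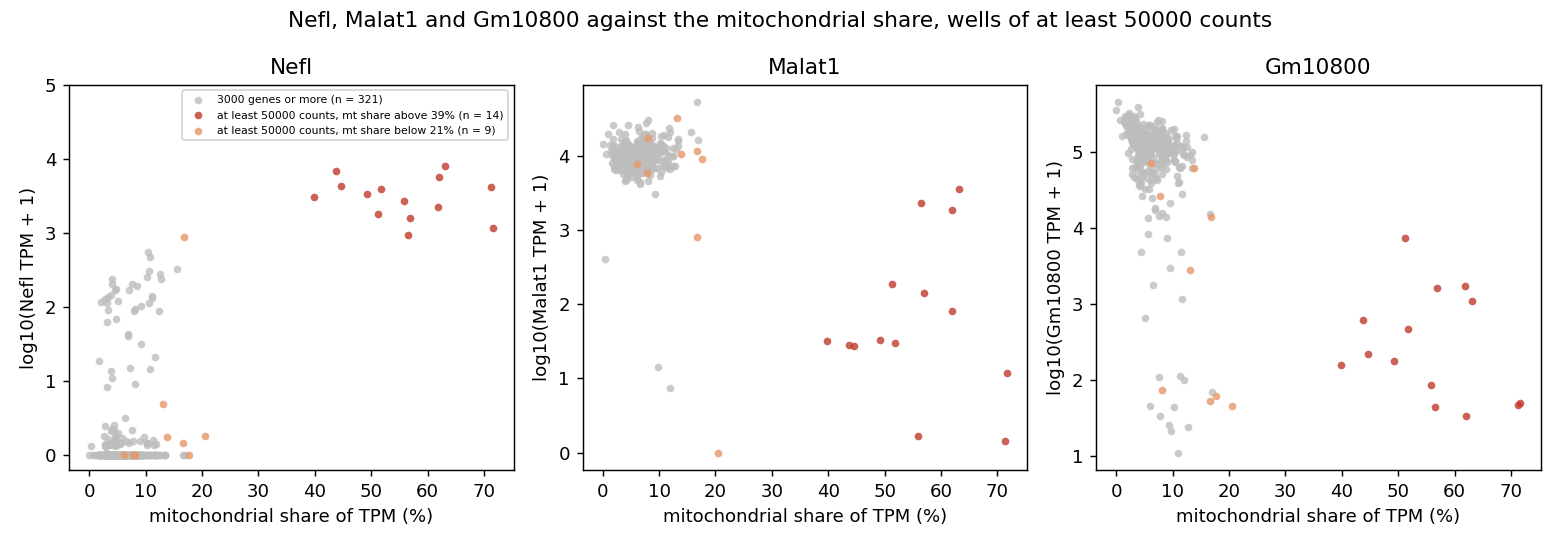
Levels of Nefl, Malat1 and Gm10800, as log10(TPM + 1), against the mitochondrial share of TPM in percent, in the 23 deeper RNA-poor wells and the 321 other wells. The 14 wells above 39% combine Nefl of 932 to 7942 TPM with Gm10800 of at most 7262 TPM, and their Malat1 runs from 0.46 to 3541 TPM.

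Other axon and neurofilament genes appeared in some of these wells only. Nefm, the medium neurofilament chain, reached 1 TPM in 8 of the 14 wells and in 1 of the 9, with a highest level of 789 TPM in F4 of 1Ra. In the GENCODE M21 annotation of mm10, Nefl lies on chromosome 14 from 68083863 to 68089095 and within the span of Nefm (68082590 to 68124846) on the opposite strand, and whether reads were counted by strand is not given in the sources used here. Nefh reached 1 TPM in 2 wells, Ina in none of the 14 and Prph in none. Sncg, gamma-synuclein, was present in 5 of the 14 wells with up to 4143 TPM, against at most 217 in the others. Gap43, a growth-cone protein, was present in 3 with up to 3363 TPM. Thy1, whose promoter drives the reporter, reached 1 TPM in 5 of the 14 wells and at most 18.6 TPM. The synapse and axon list of 16 genes summed to 0.548% in the 14 wells and 0.606% in the others, with Snap25, a release protein, at a median of 14.7 against 866 TPM.

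Calb1 was also higher in the 14 wells. Its median was 644 TPM (94.8 to 1599), against 77.4 in the 9 lower wells and 64.9 in the other 321. The ranges overlapped. Calb1 lies on chromosome 4 from 15881264 to 15908064 (mm10, GENCODE M21). By retina its means over deeper wells were 784, 132 and 1111 TPM in 1la, 1Ra and 2la, against 128, 50.6 and 129 in the other wells. In counts, the deeper wells of 1la held 161 to 333 and the other wells of 1la 19.2 to 172. In 1Ra the ranges were 11.4 to 62.6 against 1.61 to 52.2, and in 2la 26.15 to 256 against 20.7 to 8224. The ranges overlapped in each retina. The medians in 1la, 1Ra and 2la were 202, 28.95 and 208 counts against 63, 16.25 and 47.8.

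Of the transcripts that stay in the nucleus, Malat1 was low in most wells with a high mitochondrial share. Xist was low in both sets of deeper wells. Malat1, a long non-coding RNA gene on chromosome 19 from 5795690 to 5802672 (mm10, GENCODE M21), had a median of 31.5 TPM in the 14 wells (0.46 to 3541), against 9065 in the 9 lower wells and 9939 in the others. In 1la the 4 wells had 26.4, 27, 30.9 and 32.1 TPM, while H10 had 808. In 2la the 4 had 28.9, 141, 187 and 3541, while D1 had 31806. The 14 wells were not uniform: beside D5 of 2la, C11 and E5 of 1Ra held 1856 and 2268 TPM. Xist, which coats the inactive X chromosome, had a median of 0.17 TPM in the 14 wells and 0.09 in the 9, against 196 in the others. Meg3 reached 1 TPM in 2 of the 14, against 296 of 321.

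Gm10800 and Gm26870, gene models with high counts throughout the study, followed a similar order. Gm10800 had medians of 196, 2814 and 120876 TPM in the 14, the 9 and the other wells, and Gm26870 of 84.9, 1239 and 45746. Within the 9 lower wells, Gm10800 was spread from 43.8 to 69635 TPM. In 4 of these 9 wells, C1, C7 and G1 of 1Ra and H10 of 1la, it was under 73 TPM.

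As TPM sums to a fixed total, high mitochondrial transcripts lower all other levels. With mitochondrial genes left out of the total, the medians in the 14 wells and the other 321 were 6412 and 0 TPM for Nefl and 61.7 and 10520 for Malat1. For Gm10800 they were 369 and 130218 TPM. Rod genes summed to 0.606% against 0.0928%, bipolar genes to 0.337% against 1.3%, and ribosomal protein genes to 11.2% against 2.41%. None of the differences named in this paragraph changed direction. The nuclear genes of the respiratory chain and the synapse and axon list were not recomputed in this way. Whether the direction of their differences would hold was not tested.

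**Figure D5:**
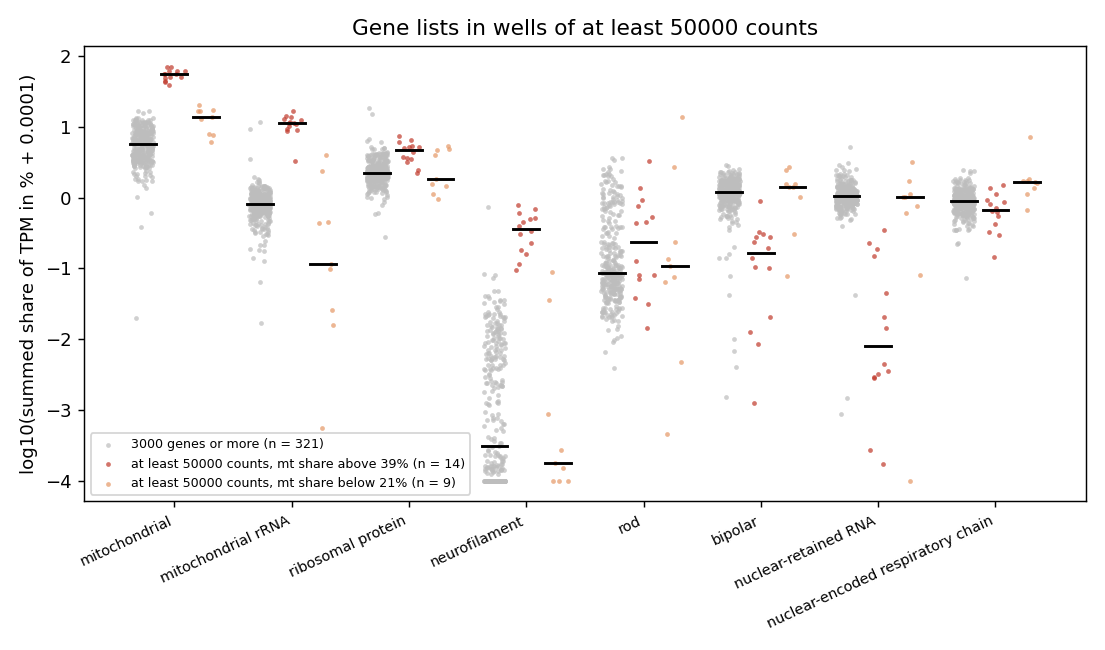
Summed share of TPM, as log10(percent + 0.0001), for 8 gene lists in the 321 other wells, the 14 high-mitochondrial and the 9 lower deeper wells. Each point is a well and each black line the median. The neurofilament list is high in the 14 wells (0.0955% to 0.794%), with 1 of the 321 other wells at 0.733%, the nuclear-retained list is low in them, and the rod list overlaps in all 3 sets.

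Bipolar genes were lower in the high-mitochondrial wells and present in the others. The 21 genes summed to a median of 0.168% of TPM in the 14 wells (0.00115 to 0.904), 1.44% in the 9 lower wells (0.0792 to 2.73) and 1.22% in the other 321. Trpm1, a cation channel that ON bipolar cells open in light, had medians of 1.74, 69.1 and 648 TPM in the 3 sets, and Cabp5, which encodes a protein that binds calcium, of 2.30, 437 and 1057. Grm6, which encodes the receptor upstream of that channel, had 2.51, 283 and 513 TPM. Kcng4 itself, the gene that carries the Cre, had a median of 0 and a maximum of 2.39 TPM in the 14 wells. It reached 1 TPM in 6 of the 9 lower wells, with a median of 177, and in 283 of the 321 others, with a median of 149. Over the 3 retinas the bipolar share of deeper wells was 0.259% ± 0.059 (SD, n = 3), against 1.28% ± 0.0915 in the other wells.

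Rod genes did not separate the sets as a list. The 22 genes summed to 0.281% of TPM in the 14 wells, 0.107% in the 9 and 0.0866% in the others, with wide overlap. Gnat1, rod transducin, reached 1 TPM in 13 of the 14, with a median of 62.5 TPM against 1.89 in the others. Well G1 of 1Ra stood apart at 13.9%, above the maximum of 3.62% in the other wells, with 32821 TPM of Gnat1 and 29351 of Pdc, phosducin. D2 of 2la held 3.34%, and B10 of 1Ra 2.76%. Over the 3 retinas the rod share was 0.147% ± 0.079 against 0.0897% ± 0.018, a difference smaller than the SD of the deeper wells. With mitochondrial genes left out of the total it was 0.231% ± 0.0762 against 0.0946% ± 0.0196, a difference larger than that SD.

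Levels of common nuclear-encoded mRNAs in the 14 wells differed from gene to gene. The 82 ribosomal protein genes summed to 4.76% of TPM, against 1.84% in the 9 lower wells and 2.27% in the others. Fth1, the ferritin heavy chain, had a median of 2554 TPM, against 553 in the 9 and 646 in the others. Tuba1a, a tubulin, had 2483, 3170 and 2306 TPM in the 3 sets. Hspa8, a constitutive chaperone, was low in the 14 wells, with 24.9 TPM against 8877 and 4001. The 26 nuclear genes of the respiratory chain summed to 0.683%, 1.66% and 0.899% in the 14, the 9 and the other wells. Of these genes, 6 were found in most of the 14 wells, against 26 in most of the other 321. Their sums are shares of the full TPM, of which mitochondrial genes took 39.8% to 71.7% in the 14 wells. They were not recomputed without mitochondrial genes, so whether these nuclear genes followed the mitochondrial genome was not tested.

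Among the lists of other cell types, those of non-neuronal cells other than Müller glia were near 0 in the deeper wells. The microglia list of 8 genes summed to at most 0.000242% of TPM, and 7 of its 8 genes were under 1 TPM in all 23 wells. The endothelium list was found in 1 well (0.0314%), with 5 of 6 genes under 1 TPM in all wells. The astrocyte list was found in 1 (0.0322%) and the red blood cell list in 1. The pericyte and pigment epithelium lists were found in 2 each, at no more than 0.000271%. The Müller glia list was higher in the 14 high-mitochondrial wells, with a median of 0.124% (0 to 0.775), against 0.000582% in the 9 and 0.0313% in the other wells (0 to 2.5). It was found in 12 of the 14 wells, 5 of its 11 genes were under 1 TPM in all 14, and 1, Glul, was present in most. Glul encodes glutamine synthetase, and its median there was 80.5 TPM against 34.8 in the other wells. The cone list had a median of 0.000175% in the 14 wells but reached 0.301%, against 0.000792% and up to 1.97% in the other wells. The amacrine list had a median of 0.0102% (up to 0.166%) against 0.00137%, and without Pax6 3.6e-05% against 0.000288%. The horizontal cell list had 0.0658% (up to 0.162%) against 0.0559%, and without Calb1 0.000228% against 0.0493%. The ganglion cell list, which includes Nefl and Nefm, summed to 0.117% to 1.21% in the 14 wells. Of its 16 genes, 9 were under 1 TPM in all of these wells. The cell death and p53 list of 16 genes was found in 9 of 23 deeper wells and had a median of 0%, and Fos, an immediate early gene, was listed at 0 in all 23. The part of these other cells in the levels above was not tested.

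Across the transcriptome, more genes were lower than higher. Of 3613 genes with a mean of at least 50 TPM in either set of wells, 146 were higher in the deeper RNA-poor wells in each of the 3 retinas and 1594 lower. Mitochondrial genes were 33 of the 146. Of the 1594, 62 were listed at 0 in all 23 wells and 771 were present in at most 3. Wells with few genes must lack many, so these counts follow in part from how the wells were chosen. The 15 named lower genes were all at 0 in the 23 wells: Dctn5, Mrpl18, Lancl1, Limch1, Wfdc1, Zfp637, Asah1, Mtx1, Gm22395, Gm25749, Sf3a3, Gpaa1, St8sia5, Gm22860 and Zfp61, whose means in the other wells were 76.2 to 119 TPM.

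The highest ratios often rested on few wells. Crabp1, a retinoic acid-binding protein, averaged 135 ± 148 TPM (SD, n = 3 retinas) but was found in 3 of the 23 wells. Sncg averaged 361 ± 410 TPM from 5 wells and Nrsn2, a neuronal membrane protein, 355 ± 438 from 4. Dio2, a thyroid hormone deiodinase, averaged 72.8 ± 75.1 from 4. Nefm averaged 78.5 ± 57.4 from 9 wells and Ppfia4 63.3 ± 55 from 3. For Pcnt, the ratio of 29.2 became 2.12 without its highest well. Among the 15 named, the mitochondrial tRNA gene mt-Tl1 was present in 14 wells and Nefl in 16, and these were the only ones found in most of the 23. Of genes present widely, Prr15 was 6.6 times, Calb1 6.59 times, Fth1 3.02 times and Ftl1 2.79 times the level of the other wells. Cox8a was 3.27 times that level, but 1.92 times without retina 2la, and its median in the 14 high-mitochondrial wells was 607 TPM against 542 in the other wells.

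The 9 deeper wells with a lower mitochondrial share were the less uniform set. They held 1212 to 2834 genes, and 766 to 1901 when thinned to 50000 counts, against 436 to 905 in the 14. Most were of retina 1Ra (7 of 9). Malat1 was at 5926 TPM or more in 7 of them, while C7 of 1Ra had 0 and H10 of 1la 808. Kcng4 was above 100 TPM in 5, and was 713 TPM in H10 of 1la and 683 in B10 of 1Ra. Ubb, a polyubiquitin gene, had 5364 to 23436 TPM (median 7144), against 2143 in the 14 wells and 3472 in the others. D1 of 2la had the lowest total, 112146 counts, and 87.9% of its TPM in 50 genes, while the other 8 had 28.9% to 48.1%.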

How the data were processed

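The tools TopHat2 2.0.10 and RSEM 1.2.28 and the build mm10 are named per the submitters' processing notes. The annotation is not given in the sources used here. The authors deposited RSEM expected counts (not normalized) and TPM for 32813 genes in 383 wells; 0 columns were of no sample. Totals and gene numbers came from expected counts, levels from TPM, and a transcript was present from 1 TPM. Members and lists were chosen with earlier results of these data known. The near-empty limit (100 counts), the 30% mitochondrial split, the split by Calb1 counts, the ribosomal protein list, the list sums without Calb1, Pax6 or Vim and the leave-out of mitochondrial genes were chosen after values were seen.

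Named genes were list members, the 15 highest mean TPM in deeper wells, up to 15 ratios on each side (same direction in each retina, at least 50 TPM), the 10 leading genes of shallow wells, Nefl, Calb1 and Kcng4. A few others (Prr15, Fth1, Ftl1, Meg3, Ubb, Gm10800, Gm26870 and the like) were named after their values were seen. Retinas were weighted equally. Wells were thinned without replacement (seed 1), and expected gene numbers came from the hypergeometric formula, checked against drawn samples. The planned Ra against la tests were not made, since 2Ra had 0 deeper wells. Alternatives covered gene limits, depth, unit and summary. Python 3.11.15, pandas 2.3.3, numpy 2.4.6, scipy 1.17.1 and matplotlib 3.10.9 were used. Gene positions are those of GENCODE M21.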

Additional observations from a re-analysis of the deposited data

Results flagged for a closer look

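In groups of 4 to 10 wells of 1 retina and set, 30 groups of values were examined for a highest or lowest well far from the rest, and 14 were found. Several of these values came from the same wells, and the groups mixed kinds of wells already described. The number found was therefore not compared with chance. Among the 5 deeper wells of 1la, H10 stood apart with a total of 1010658 counts against at most 554908 in the others. The same well had the lowest mitochondrial share of the 5, 16.7% against 39.8% to 49.2%. It also had the highest bipolar share, 1.44% against at most 0.323%, and the highest Malat1 level, 808 TPM against at most 32.1.

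Among the 9 shallow wells of 1la, E8 stood apart in 6 values. Its mitochondrial share was 5.51%, its rod share 0.863% and its bipolar share 1.03% of TPM. Its Malat1 level was 11730 TPM and its mt-Rnr2 level 4610 TPM, both the highest of the 9, and its Calb1 level was 0 TPM, the lowest. In the same retina, A9 was the only shallow well with Nefl, at 97.9 TPM from 2 counts.

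Among the 5 deeper wells of 2la, D1 had the lowest mitochondrial share, 13.1%, and the highest Malat1 level, 31806 TPM. D2 had the highest rod share, 3.34% against at most 0.435%.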

How the results depend on the processing

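The number of RNA-poor wells was 60 to 63 under other gene limits and detection rules, and 51 without row D of 1la. The deeper wells numbered 21 to 24. With mean in place of median over wells, the rod share was 0.903% and the bipolar share 0.596%, in place of 0.147% and 0.259%. G1 of 1Ra alone held 13.9% of rod genes. In CPM (expected counts scaled to the library total) the neurofilament share was 0.521% in place of 0.201%. With mitochondrial genes left out of the total, chosen after seeing the data, the shares were 0.231% (rod), 0.379% (neurofilament) and 0.537% (bipolar). Leaving out each retina gave mitochondrial shares of 32.1% to 47.8%, rod 0.103% to 0.181%, neurofilament 0.135% to 0.258% and bipolar 0.235% to 0.292%. The other alternatives run moved these 4 shares by less than the SD between retinas. The mitochondrial share was 50.5% in wells of fewer than 2500 genes and 26.5% in CPM, in place of 38.7%. At 100000 counts the thinned median was 939 genes.

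No paired analysis was possible because retina 2Ra had no deeper well, so the Ra against la comparison and its alternatives (block, other tool, normalization, filter, gene limit, depth, left-out retina) were not run. With 5, 13 and 5 deeper wells in 3 retinas of 2 mice, retina differences are not separable from plate. Shallow wells cannot show low transcripts: an absent gene there was not detectable at that depth.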
